A study of Mus musculus with 6 samples.

Results

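Interferon gamma, a cytokine made mainly by activated T cells and NK cells, binds a receptor of the subunits Ifngr1 and Ifngr2 and signals through the kinases Jak1 and Jak2. The signal reaches genes through gamma-activated sequences (GAS) and induces, among others, the transcription factor Irf1, which acts on interferon-stimulated response elements (ISRE) in a further wave of genes. Among the genes most strongly induced by the cytokine are large families of immune GTPases and the chemokines Cxcl9 and Cxcl10, which attract T cells through their receptor Cxcr3.

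Described here are 10 such genes: the guanylate binding proteins Gbp2, Gbp3 and Gbp6, the immunity-related GTPases Irgm1, Irgm2, Igtp and Iigp1, the transcription factor Irf1, and the chemokines Cxcl9 and Cxcl10. Their probes were found through the RefSeq accession that the array gives to each probe. The 10 genes had 15 of the 55681 gene probes, and 14 of these 15 were kept after a filter on dim probes. All 10 genes were tested, among 22503 genes or unnamed transcripts in all. The brightest kept probe stood for each gene.

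RNA came from live CD45- cells, sorted from dissociated tumors to remove leukocytes, which carry CD45. The tumors grew in syngeneic C57BL/6 mice after orthotopic transplantation of late carcinoma cells of the MMTV-PyMT model, in which a mammary tumor virus promoter drives the polyomavirus middle T oncogene, and both groups carry this transgene. The transplanted cells were RANK+/+ or RANK-/-, that is, with or without RANK, the receptor for RANK ligand that Tnfrsf11a encodes, while the hosts were wild type and could add CD45- stroma of their own. Per the methods the hosts were females, some weeks old at implantation. The primary tumor behind each RNA is not given in the sources used here, so p values measure the spread between these samples, which may in part be technical.

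An RNA of each genotype was hybridized together on 2-color arrays, in 3 pairs with 2 technical replicate arrays each (A and B), and a pair counted as 1 replicate (n = 3). A log2 ratio is that of the RNA labeled RANK-/- over the RNA labeled RANK+/+, and a level is the normalized log2 intensity of a probe in 1 RNA, mean of arrays A and B. In pair 1 the RNA labeled RANK-/- was in Cy5, and in pairs 2 and 3 it was in Cy3, so pair 1 and its dye arrangement cannot be told apart. The labels give arrays A and B of a pair the same dyes, whereas the methods describe a swap of dyes for each sample. With dyes as labeled, the technical replicates gave nearly the same ratios, where a swap between arrays A and B would have given opposite signs. Which RNA was in which dye, on which the sign of each ratio rests, is given by the labels. The normalized ratios deposited by the authors ran in the labeled direction on all 6 arrays (correlation with the scanner ratios 0.77 to 0.95). Both sources come from the authors, and the dye arrangement could not be settled here. Per array and genotype, 28926 to 32756 probes were well above background. The targeted gene went against its label: the signal of Tnfrsf11a was higher in the RNA labeled RANK-/- in every pair (log2 ratios 2.03, 1.15 and 1.76), and where its probe lies relative to the deleted part is not known here. The labels are taken as given for every direction below. All 10 luminal epithelial markers were detected (well above background) with either label on all 6 arrays. Ptprc, which encodes CD45, was detected with the label RANK-/- on 5 of 6 arrays and with the label RANK+/+ on 4. Of the other general leukocyte genes, Coro1a, Cd52, Itgb2, Lcp1 and Vav1 were detected with either label on all 6 arrays, whereas Laptm5 and Cd53 were not. Every endothelial and fibroblast marker examined was likewise detected with either label on all 6 arrays.

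Promoters are shown first, because interferons are known to act on many such genes through elements in their promoters. RefSeq promoters (GRCm38.p6, 250 bases before to 50 after an annotated start) were found for 8 of the 10 genes, with 10 starts in all. Gbp6 and Iigp1 were not matched. Both strands were searched for an ISRE core (GAAA, any 2 bases, GAAA), a GAS (TTC, any 3 bases, GAA, which is its own reverse complement) and a kB motif (GGGA, any 2 bases, TTCC). Of all 32851 promoters in the table, 3.44% held an ISRE core, 8.30% a GAS and 1.47% a kB motif. Among the 8 genes, 6 held an ISRE core, 3 a GAS and 2 a kB motif, and 7 held an ISRE core or a GAS, which 11.3% of all promoters did. A gene counted if any of its starts held the motif, whereas the percentages count each promoter on its own. The 100 bases around the matches are printed 5′ to 3′ in the direction of transcription, with matched letters in capitals.

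Gbp2 (chr3:142620563-142620662, + strand, positions -100 to -1 from the start, ISRE core on the reverse strand):
Gbp2: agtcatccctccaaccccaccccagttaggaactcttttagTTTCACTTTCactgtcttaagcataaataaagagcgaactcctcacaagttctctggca
Gbp3 (chr3:142559944-142560043, + strand, -100 to -1, a pair of overlapping ISRE cores on the reverse strand):
Gbp3: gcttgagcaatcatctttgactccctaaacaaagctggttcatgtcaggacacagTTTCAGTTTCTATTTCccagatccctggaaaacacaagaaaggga
Irgm1 (chr11:48871421-48871520, - strand, -100 to -1, a pair of overlapping ISRE cores):
Irgm1: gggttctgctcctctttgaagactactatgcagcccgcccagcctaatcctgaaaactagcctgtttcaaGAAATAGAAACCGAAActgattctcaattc
Irgm2 (chr11:58214877-58214976, + strand, -100 to -1, a GAS and then an ISRE core):
Irgm2: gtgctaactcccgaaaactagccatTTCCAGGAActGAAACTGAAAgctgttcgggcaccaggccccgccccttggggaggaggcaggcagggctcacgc
Igtp (chr11:58199456-58199555, + strand, -100 to -1, a GAS and then an ISRE core):
Igtp: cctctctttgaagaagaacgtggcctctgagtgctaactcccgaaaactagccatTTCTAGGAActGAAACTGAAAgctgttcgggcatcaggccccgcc
Irf1 (chr11:53769914-53770013, + strand, -100 to -1, a GAS):
Irf1: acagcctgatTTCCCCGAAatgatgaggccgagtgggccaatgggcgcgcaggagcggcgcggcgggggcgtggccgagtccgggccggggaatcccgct
Cxcl10 (chr5:92349010-92349109, - strand, -220 to -121, an ISRE core and then a kB motif):
Cxcl10: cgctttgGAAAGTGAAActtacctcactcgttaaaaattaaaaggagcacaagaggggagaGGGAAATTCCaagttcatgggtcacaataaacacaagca

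The matches lay close to the start in the GTPase genes and farther up in Cxcl10. The ISRE core of Gbp2 covered positions -59 to -50, and a kB match followed the start of this gene (8 to 17, not printed). In Gbp3 the overlapping cores began at -45 and -39, and in Irgm1 at -30 and -24. The neighboring genes Igtp and Irgm2 shared an arrangement, with the ISRE core beginning 11 bases after the GAS in both (GAS at -45 in Igtp and at -75 in Irgm2). Set on the GAS, 91 of 95 bases of these promoters were identical (95.8%). The GAS of Irf1 began at -90, and in Cxcl10 the ISRE core began at -213 and the kB motif at -159. Cxcl9 and the second annotated starts of Gbp3 and Irf1 held none of these letters in this window. A match describes the sequence only and does not show that a factor bound there.

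**Figure D1:**
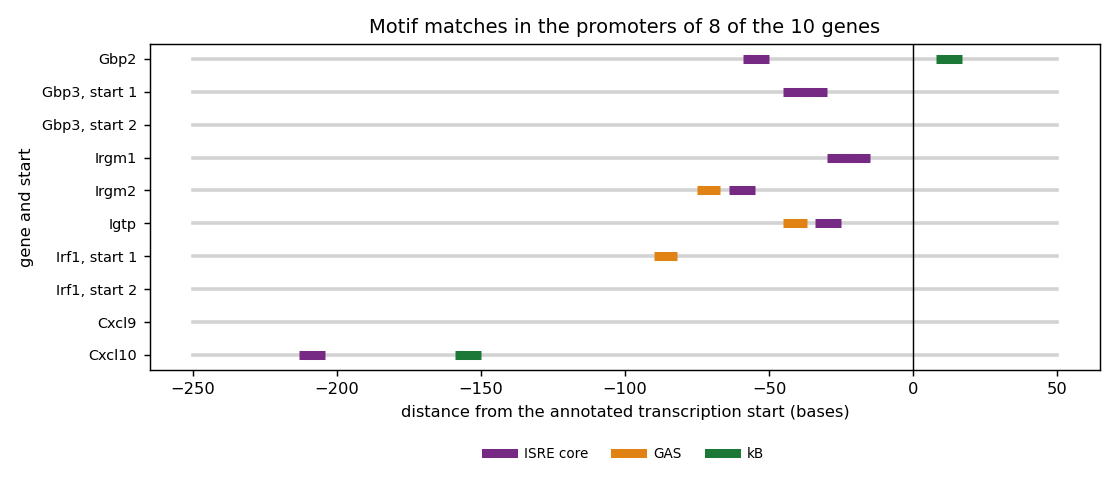
Positions of ISRE core, GAS and kB matches (colored bars) in the promoters of 8 of the 10 genes; the x axis is the distance in bases from each annotated start (vertical line), and each row is a start. The GTPase matches before the start lie between -75 and -15, whereas those of Cxcl10 begin at -213 and -159.

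The question was whether these genes differed between the tumor cells labeled RANK-/- and those labeled RANK+/+. In pairs 2 and 3 all 10 genes were higher in the RNA labeled RANK-/-, with a median log2 ratio of 1.95 in pair 2 (0.53 to 3.58) and 1.52 in pair 3 (0.33 to 2.54), that is, 3.86-fold and 2.87-fold. In pair 1 the median was -0.57 (-1.67 to 0.29), with 8 of the 10 genes below 0. At least 2-fold higher in both pairs 2 and 3 were 8 of the 10 genes, against 0.644% of all genes tested. Lower in pair 1 and higher in pairs 2 and 3 were also 8 of the 10, against 13.5% of all genes. Higher in all 3 pairs were 2 of the 10 (Irf1 and Gbp6), a share near that of all genes (9.95%). By pair, at least 2-fold higher were 9 genes in pair 2 and 8 in pair 3 (2.45% and 4.91% of all genes), while in pair 1 there were 0 at least 2-fold higher (3.66% of all genes) and 3 at least 2-fold lower (2.84%).

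By limma with Benjamini-Hochberg adjustment over all genes, 0 of the 10 genes passed the threshold of 0.05 (adjusted p 1.00 for each), as did 0% of all genes. At an unadjusted p under 0.05 there was 1 member, Irf1, and 647 genes in all. A rank product test called 9 genes and 0 members, with a smallest adjusted p of 0.118 for Cxcl9. The mean ratios of the members ran from 0.30 to 1.34 with a median of 1.09, beside a median of 0.00 over all genes, and their SD over the 3 pairs had a median of 1.30 (0.24 to 2.62). For 7 of them the SD between pairs was larger than the mean. Arrays A and B of a pair differed by at most 0.21 in any member, so the spread lies between the pairs and not between technical replicates.

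**Figure D2:**
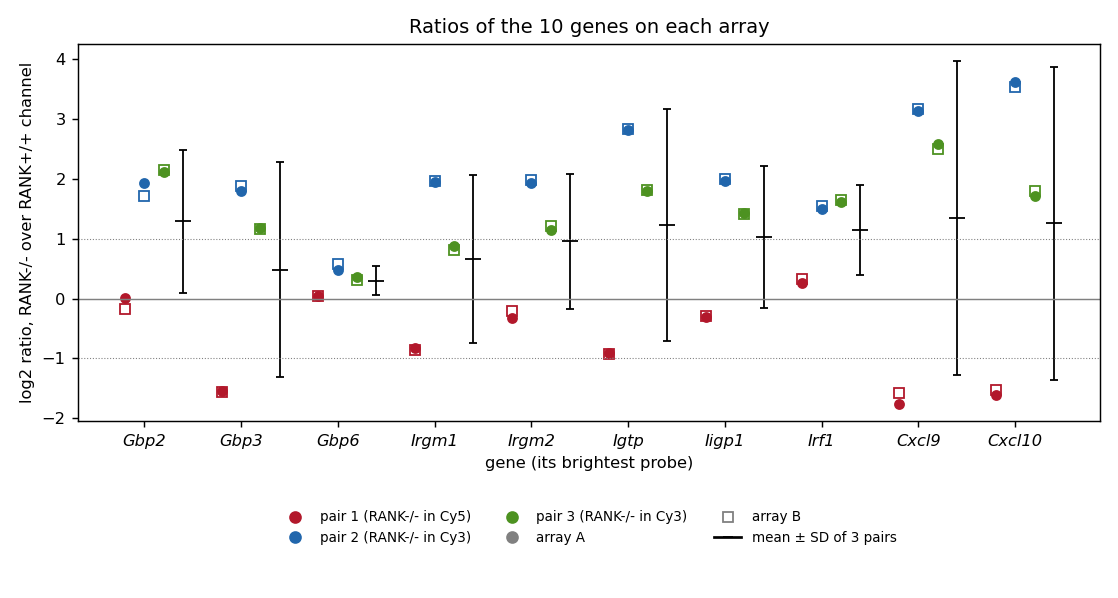
Log2 ratio (y axis, RNA labeled RANK-/- over RNA labeled RANK+/+) of each of the 10 genes (x axis) on arrays A (filled circles) and B (open squares) of pairs 1, 2 and 3, with the mean ± SD of the 3 pairs in black and dotted lines at 2-fold. Pairs 2 and 3 lie above 0 for every gene, and pair 1 lies lowest in all 10.

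Levels were then read in each RNA on its own. In all 10 genes the lowest of the 6 levels was in the RNA labeled RANK+/+ of pair 3, which was the lowest for 18.2% of all genes. In 9 of the 10 the highest level was in the RNA labeled RANK-/- of pair 2, which was the highest for 15% of all genes, and the exception was Gbp3, highest in the RNA labeled RANK+/+ of pair 1. Both at once held for 9 of the 10 genes and for 3.22% of all genes. Relative to the mean of a gene's 6 levels, the members' median was 1.80 in the RNA labeled RANK-/- of pair 2 and -1.95 in that labeled RANK+/+ of pair 3, beside 0.62 in the RNA labeled RANK+/+ of pair 1 and values between -0.43 and 0.01 in the other RNAs. The RNA labeled RANK+/+ of pair 1 exceeded both other RNAs of that label in 9 of the 10 genes, as for 31.8% of all genes. The levels of the 2 labels overlapped in all 10 genes: in 0 did every RNA labeled RANK-/- lie above every RNA labeled RANK+/+, which held for 3.69% of all genes. The range among the 3 RNAs labeled RANK+/+ had a median of 2.60 over the 10 genes and that among the RNAs labeled RANK-/- 2.51. Since bulk RNA was measured, fewer cells of a type and less RNA per cell cannot be told apart.

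**Figure D3:**
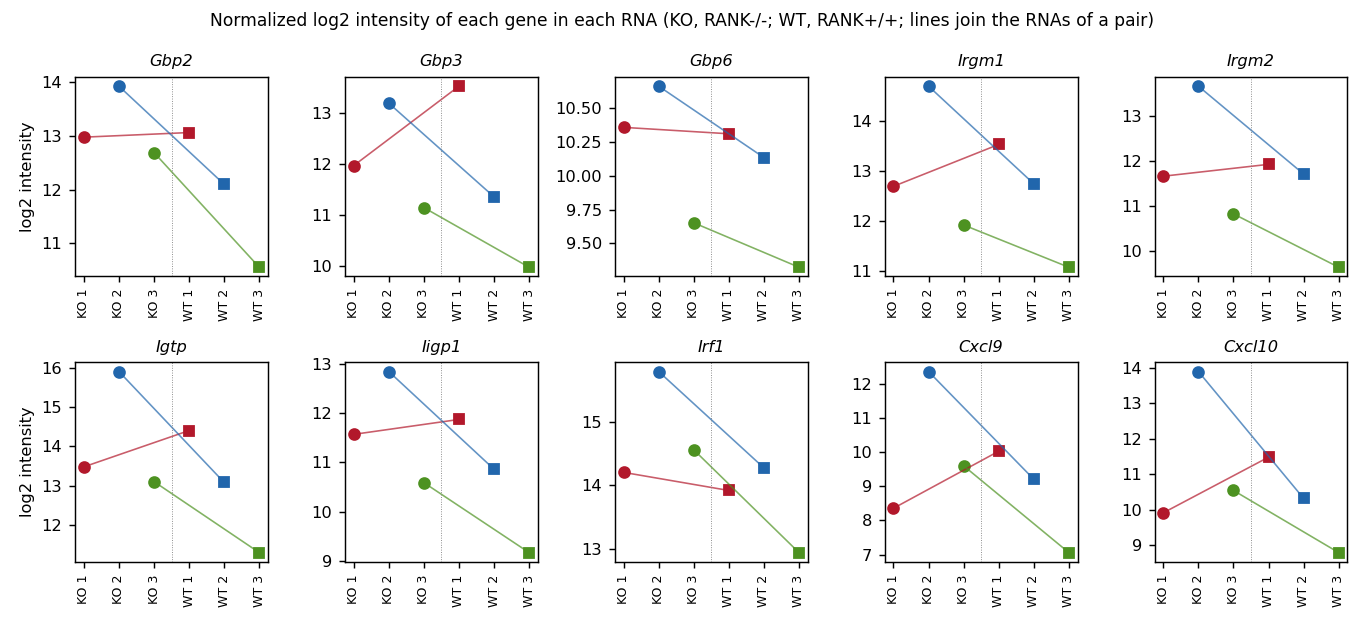
Normalized log2 intensity (y axis, own scale in each panel) of each of the 10 genes in the 6 RNAs (x axis; circles, RNAs labeled RANK-/-, KO; squares, RNAs labeled RANK+/+, WT), with a line joining the RNAs of a pair (red, blue and green for pairs 1, 2 and 3). WT 3 is lowest in all 10 panels and KO 2 highest in 9.

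Irf1, the transcription factor that carries the response to later target genes, was the member with the smallest p. Its levels were 14.21, 15.80 and 14.56 in the RNAs labeled RANK-/- of pairs 1, 2 and 3, and 13.92, 14.28 and 12.94 in those labeled RANK+/+. The groups overlapped narrowly, since the lowest RNA labeled RANK-/- lay 0.07 below the highest RNA labeled RANK+/+ (difference -0.07). The log2 ratios were 0.29, 1.53 and 1.63, a mean of 1.15 ± 0.75 (SD, n = 3; limma SE 0.32, unadjusted p 0.0209, adjusted p 1.00). A second Irf1 probe, named for the transcript NM_001159393, was detected with the label RANK-/- on 2 arrays and with the label RANK+/+ on 1, and it was not tested.

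The guanylate binding proteins are interferon-induced GTPases that assemble on the vacuoles and membranes of intracellular pathogens. Gbp2 had levels of 12.97, 13.92 and 12.69 in the RNAs labeled RANK-/- and 13.06, 12.10 and 10.56 in those labeled RANK+/+. It was level in pair 1, with array A at 0.01 and array B at -0.18, and 3.54-fold and 4.38-fold higher in the RNA labeled RANK-/- in pairs 2 and 3 (log2 ratios -0.09, 1.82 and 2.13; mean 1.29 ± 1.20, unadjusted p 0.0540). Among the 10 genes only Gbp2 and Irf1 had a larger ratio in pair 3 than in pair 2.

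Gbp3 ran one way in pair 1 and the other way in pairs 2 and 3. Its levels were 11.98, 13.20 and 11.15 in the RNAs labeled RANK-/- and 13.53, 11.36 and 9.99 in those labeled RANK+/+. The RNA labeled RANK+/+ of pair 1 was thus the highest of all 6, and the gene was 2.94 times lower in the RNA labeled RANK-/- of that pair, while it was 3.57-fold and 2.25-fold higher in pairs 2 and 3 (log2 ratios -1.56, 1.83 and 1.17; mean 0.48 ± 1.80). The sign of its mean depended on pair 2, without which it was -0.19.

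Gbp6 was read by 2 probes that disagreed in size. The brighter one had levels of 10.36, 10.66 and 9.65 in the RNAs labeled RANK-/- and 10.31, 10.13 and 9.32 in the others, with ratios of 0.05, 0.53 and 0.33 (mean 0.30 ± 0.24). The dimmer one had ratios of -1.44, 2.69 and 0.96 (mean 0.74 ± 2.07), which follow the order of the other members. Both probes carry the same accession, so the small change of Gbp6 rests on the choice of probe. Whether a probe also binds transcripts of related family members was not tested.

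The immunity-related GTPases act on pathogen vacuoles as well. Irgm1, Irgm2 and Igtp are regulatory members that hold effector members such as Iigp1 in their inactive state on the membranes of the cell. Igtp had the largest ratios of the 4, with levels of 13.48, 15.90 and 13.10 in the RNAs labeled RANK-/- and 14.40, 13.08 and 11.30 in those labeled RANK+/+. It was 1.90 times lower in the RNA labeled RANK-/- of pair 1 and 7.07-fold and 3.49-fold higher in pairs 2 and 3 (log2 ratios -0.92, 2.82 and 1.81; mean 1.23 ± 1.94).

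Irgm1 and Irgm2, also regulatory, ranked the 6 RNAs in the same order as each other. Irgm1 had levels of 12.69, 14.69 and 11.92 in the RNAs labeled RANK-/- and 13.53, 12.74 and 11.07 in those labeled RANK+/+ (log2 ratios -0.84, 1.95 and 0.84; mean 0.65 ± 1.40). A second Irgm1 probe gave nearly the same ratios (-0.81, 1.89 and 0.51). Irgm2 had levels of 11.66, 13.66 and 10.82 against 11.92, 11.71 and 9.64 (log2 ratios -0.26, 1.95 and 1.18; mean 0.96 ± 1.12). In pair 2 the neighbors Igtp and Irgm2 were 7.07-fold and 3.86-fold higher.

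Iigp1, the effector of the group, had levels of 11.57, 12.84 and 10.59 in the RNAs labeled RANK-/- and 11.87, 10.86 and 9.17 in those labeled RANK+/+. Its log2 ratios were -0.30, 1.98 and 1.42 (mean 1.03 ± 1.19), and its profile over the 3 pairs was the closest of the 10 to the members' median profile, at a Euclidean distance of 0.29 log2 units. A second probe gave -0.83, 2.29 and 1.42.

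The chemokines had the widest swings. Cxcl9 had levels of 8.36, 12.36 and 9.60 in the RNAs labeled RANK-/- and 10.03, 9.21 and 7.06 in those labeled RANK+/+. It was 3.18 times lower in the RNA labeled RANK-/- of pair 1 and 8.89-fold and 5.82-fold higher in pairs 2 and 3 (log2 ratios -1.67, 3.15 and 2.54; mean 1.34 ± 2.62). The second Cxcl9 probe had the same signs (-1.66, 3.02 and 1.93).

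Cxcl10, a chemokine for the same receptor, had levels of 9.92, 13.90 and 10.55 in the RNAs labeled RANK-/- and 11.48, 10.32 and 8.79 in those labeled RANK+/+. Its 11.9-fold difference in pair 2 was the largest of any member in any pair, beside 3.37-fold in pair 3 and 2.97 times lower in pair 1 (log2 ratios -1.57, 3.58 and 1.75; mean 1.25 ± 2.61). The receptor Cxcr3, a protein of activated T and NK cells, was detected with the label RANK-/- on 1 of 6 arrays and with the label RANK+/+ on 2 and was not tested. Cxcl11, the other ligand of that receptor, had no probe matched here.

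Whether pair 1 differed from pairs 2 and 3 was tested with a term in limma. The difference was negative in all 10 genes, from -0.38 in Gbp6 to -4.51 in Cxcl9 (limma SE 0.34 and 0.43), with a median of -2.15 beside 0.02 over all genes. None passed the threshold over all genes (0 of 10, adjusted p 0.787 to 0.938, as did 0% of all genes lower in pair 1), and at an unadjusted p under 0.05 there were 9 of the 10, the exception being Gbp6, and 1379 genes in all. With 1 pair in one dye arrangement, this fit assumes that pair 1 varies like the other two.

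Genes of interferon gamma signalling, with inhibitors and further regulators among them, were next examined, as a list chosen with earlier results known. Of its 14 genes 13 were tested and 0 passed the threshold, with list medians of 0.03, 0.09 and 0.22 in pairs 1, 2 and 3, beside medians near 0 over all genes (0.02, -0.01 and 0.00). Of the 13, 8 had their lowest level in the RNA labeled RANK+/+ of pair 3, beside 18.2% of all genes. The highest level was in the RNA labeled RANK-/- of pair 2 in 6 (15% of all genes), and both held for 5 (3.22%). Ifng, the cytokine itself, was not tested, since it was detected with the label RANK-/- on 3 of 6 arrays and with the label RANK+/+ on 2. Its level was highest in the RNA labeled RANK+/+ of pair 1 (7.14), beside 5.81 to 6.55 in the other 5.

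The receptor and its kinases had log2 ratios from -0.58 to 0.93. The receptor subunits had opposite signs to the members in pair 2: Ifngr1 had log2 ratios of 0.22, -0.58 and 0.05, and Ifngr2 of 0.85, -0.43 and -0.34. The kinase Jak1 stayed close to 0 (-0.10, 0.09 and 0.24), and its partner Jak2 had 0.29, -0.45 and 0.93.

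Among the inhibitors of the pathway, Socs1 had ratios of 0.16, 0.44 and 0.14, Socs3 of 0.02, -0.14 and 1.26, and the phosphatase Ptpn2 of 1.11, -0.64 and 0.28. Of the further interferon regulatory factors, Irf8 had -0.22, 0.72 and 0.45, Irf9 -0.23, 0.66 and -0.14, and Irf2, an antagonist of Irf1, 0.03, -0.10 and 0.20. Nlrc5, the transactivator of class I antigen presentation, had the largest swing of this list (-0.81, 1.47 and 0.83), whereas Ciita, its class II counterpart, was at 0.43, 0.47 and 0.15. Socs1 and Ciita were the 2 of the 13 genes that were higher in the RNA labeled RANK-/- in all 3 pairs, beside 9.95% of all genes.

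Other members of the GTPase families were summarized in the same way. Of 8 other guanylate binding proteins 7 were tested, 0 passed the threshold, and their medians were 0.08, 1.99 and 0.74 in pairs 1, 2 and 3. Gbp4 had the largest mean (0.13, 2.54 and 1.62; 1.43 ± 1.22), followed by Gbp8 (0.70, 1.99 and 0.74), Gbp5 (-0.63, 2.40 and 1.44) and Gbp9 (0.08, 1.58 and 0.74). In this list 4 of 7 genes were higher in the RNA labeled RANK-/- in all 3 pairs, against 9.95% of all genes. All 7 had their highest level in that RNA of pair 2, as had 15% of all genes. Among the 7, Gbp2b was dim, detected with the label RANK-/- on 4 of 6 arrays and with the label RANK+/+ on 2.

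Of 9 other immunity-related GTPases and relatives 8 were tested and 0 passed, with medians of -0.22, 2.19 and 1.35. Tgtp2, named as a T-cell-specific GTPase, was at -1.59, 3.05 and 2.39 (mean 1.29 ± 2.51). The very large GTPase Gvin1 (-0.62, 2.22 and 2.02), Gm4951 (-0.19, 2.15 and 1.52) and Ifi47 (-0.19, 1.96 and 1.50) had the next largest means. In 7 of these 8 genes the highest level was in the RNA labeled RANK-/- of pair 2 and the lowest in the RNA labeled RANK+/+ of pair 3. Both held for 3.22% of all genes.

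Other genes that interferon gamma induces had a smaller range. Of 17, 16 were tested and 0 passed, with medians of -0.22, 1.01 and 1.07, and 10 of the 16 had a negative ratio in pair 1 with positive ones in both other pairs. Of all genes, 13.5% had these signs. Serping1, the inhibitor of complement C1, was at -0.34, 1.20 and 2.50, and B2m, the light chain of class I molecules, at 0.22, 1.70 and 1.30. Tap2, a peptide transporter subunit, had -0.09, 1.15 and 1.83, and the immunoproteasome subunit Psmb8 had -0.06, 1.49 and 1.40.

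Genes known mainly as targets of type I interferons, which act through the same ISRE, were compared next. Of 18, 16 were tested and 0 passed, with medians of -0.70, 1.04 and 0.45. Ifi44 (-0.16, 1.20 and 0.57), Rtp4 (0.13, 0.92 and 0.48), Cmpk2 (-0.66, 1.10 and 0.70) and the RNA sensor Oas2 (-1.03, 0.98 and 1.16) had the largest means of the list. The RNA labeled RANK+/+ of pair 1 was the highest in 9 of the 16 genes and that labeled RANK-/- of pair 2 in the other 7, against 1 and 9 of the 10 members, and no test of this difference was made. The RNA labeled RANK+/+ of pair 3 was the lowest in 14 of the 16, as in all 10 members, beside 18.2% of all genes. The RNA labeled RANK-/- of pair 2 was the highest for 15% of all genes. The share of all genes highest in the RNA labeled RANK+/+ of pair 1 was not counted.

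**Figure D4:**
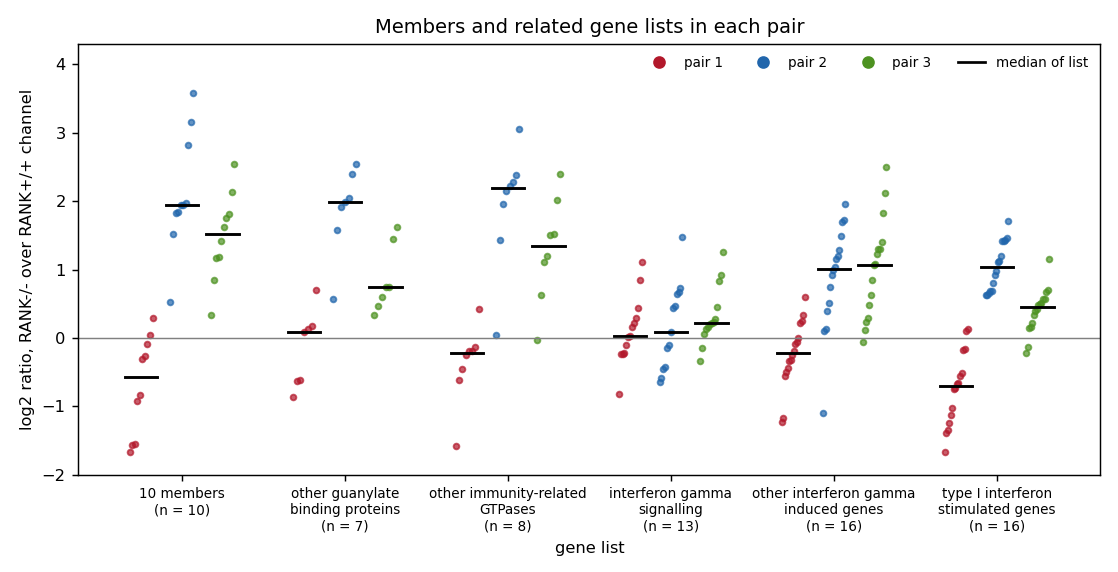
Log2 ratio (y axis, RNA labeled RANK-/- over RNA labeled RANK+/+) of each tested gene (points) in the 10 members and 5 related lists (x axis) in pairs 1 (red), 2 (blue) and 3 (green), with list medians as black lines. The median of the signalling list stays near 0 in every pair (0.03, 0.09 and 0.22), whereas both GTPase lists reach medians of 1.99 and 2.19 in pair 2.

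The genes outside the members with the most similar profile over the 3 pairs were Cyp4b1, Ifi47, Prg4, Gm4951, Nrp2, Gbp5, Psmb9, Nsg1, Ppp1r10 and Gvin1, at Euclidean distances of 0.36 to 0.57 log2 units from the members' median profile. Of these 10, 5 stood on the lists above (Ifi47, Gm4951, Gbp5, Psmb9 and Gvin1). Cyp4b1, the closest, had ratios of -0.92, 2.05 and 1.54. The members themselves lay at 0.29 (Iigp1) to 1.96 (Gbp6).

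Markers of other cells were read in each RNA as well. The RNA labeled RANK+/+ of pair 1 had the highest level in 5 of the 7 tested general leukocyte genes, with a list median of 0.89 above the mean of the 6 RNAs. Ptprc was 7.38 there and 6.08 to 6.45 in the other RNAs. In 7 of the 11 tested macrophage genes and in 2 of the 3 tested dendritic cell genes the same RNA was also the highest. So it was in 3 of the 7 tested T and NK genes, with a list median of 0.09. The share of all genes highest in this RNA was not counted. A gene highest there also exceeds both other RNAs of that label, which held for 31.8% of all genes.

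The summed intensity of the leukocyte list ranged from 5577 to 9395 in the RNAs labeled RANK-/- and from 6749 to 8244 in the others. A single bright gene, Lcp1, made up 64.4% to 89.8% of these sums, and without it the sum was 2938 in the RNA labeled RANK+/+ of pair 1 and 688.1 to 1840 in the other RNAs. That of the T and NK list ranged from 2642 to 3280 and from 2756 to 3662. Cd4 and Cd3e made up 37.4% to 54.3% of these sums. Without them the sum was 2292 in the RNA labeled RANK+/+ of pair 1 and 1207 to 1846 in the other RNAs. Of the genes left, Lck made up the largest part of the sum in the RNA labeled RANK+/+ of pair 1. Its level was 10.17 there and 7.83 to 9.76 in the other RNAs. Of that list 7 of 14 genes were tested, while Cd3d, Cd3g, Cd8a, Cd8b1, Gzmb, Klrb1c and Ncr1 were too dim, as were Cd53 of the leukocyte list, Fcgr1 of the macrophage list and Flt3, Xcr1 and Clec9a of the dendritic cell list. The part of leukocyte RNA in the pair 1 ratios was not tested.

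Markers were also read in the RNAs where the members were highest and lowest. In the RNA labeled RANK-/- of pair 2, where 9 of the 10 members peaked, 0 of the 7 leukocyte and 0 of the 11 macrophage genes had their highest level, and the list medians were -0.04 and -0.01 relative to the mean of the 6 RNAs. Of the T and NK genes, 2 of the 7 peaked there (list median 0.12). Over all genes, 15% peaked in this RNA. Luminal epithelial genes were low in the same RNA, with a list median of -0.43, the lowest of the 6 RNAs. This median was nearly as low, at -0.39, in the RNA labeled RANK+/+ of pair 3, where the members were lowest. The log2 ratios of this list had a median of -0.61 in pair 2, with 1 of 10 genes above 0, and of 1.07 in pair 3, with 9 of 10 above 0, beside 0.36 in pair 1. Its summed intensity ran from 180461 to 506327 in the RNAs labeled RANK-/- and from 207061 to 319765 in the others. Krt18 made up 35.9% to 54.9% of these sums. Without Krt18 and Cldn3 the sum was 77150 in the RNA labeled RANK-/- of pair 2 and 77340 in that labeled RANK+/+ of pair 3. The part of epithelial RNA in the ratios of the members was not tested. In the RNA labeled RANK+/+ of pair 3, where all 10 members were lowest, fibroblast genes were low as well, with 8 of 10 at their lowest level and a list median of -1.04, and so were macrophage genes (7 of 11, median -0.60) and general leukocyte genes (5 of 7, median -0.63). Over all genes, 18.2% had their lowest level in this RNA. Summed fibroblast intensity ran from 147902 to 241292 in the RNAs labeled RANK-/- and from 55415 to 150862 in those labeled RANK+/+. The part of stromal RNA in the pair 3 ratios was not tested. Summed macrophage intensity ran from 20310 to 22934 and from 12376 to 22679, of which Cd14 and Itgam made up 75.4% to 89.4%.

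**Figure D5:**
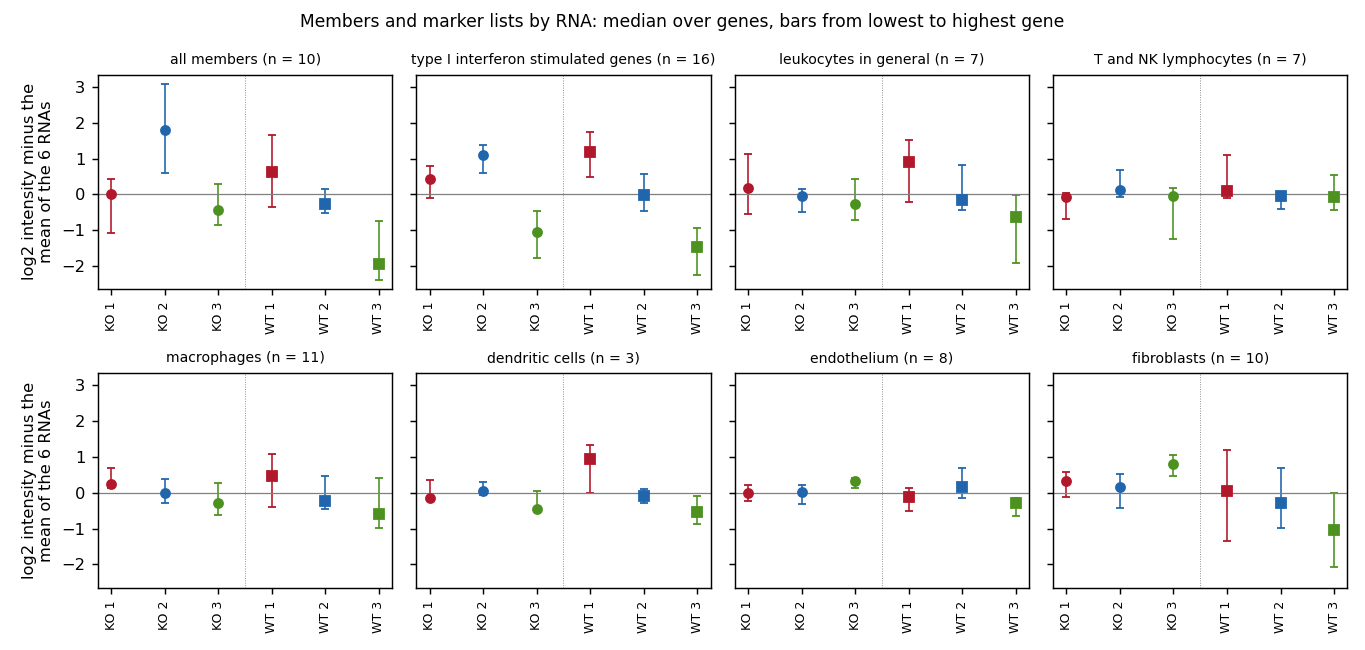
Level relative to the mean of the 6 RNAs (y axis, log2 intensity) in each RNA (x axis; circles, RNAs labeled RANK-/-, KO; squares, RNAs labeled RANK+/+, WT; red, blue and green for pairs 1, 2 and 3) for the 10 members, type I interferon genes and 6 marker lists, as the median over genes with bars from the lowest to the highest gene. The members peak in KO 2 (1.80) where the leukocyte list is at -0.04, and both are low in WT 3 (-1.95 and -0.63).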

How the data were processed

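The authors extracted the scanned SurePrint G3 Mouse arrays with Agilent Feature Extraction 10.7.3.1 (submitters' processing notes). The deposited tables give unnormalized median spot and background intensity in both channels. They also hold processed intensities, used as an alternative, and log ratios, not used. The deposited series table holds log2 ratios normalized by the authors, which ran as RANK-/- over RANK+/+ when set against scanner ratios. It too served only as an alternative.

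Median intensities were corrected with normexp (offset 50), and control and outlier spots were removed. Ratios were normalized by loess and arrays by Aquantile in limma 3.58.1 (R 4.3.3). The technical replicate arrays were averaged within pairs. A probe was kept if 1 genotype's signal was well above background on both arrays in at least 2 pairs. Symbols came from RefSeq (GRCm38.p6) through accessions (28026 of 55681 gene probes matched), and the array design is on another build, so none of its coordinates are given. The test was limma's (two-sided, lmFit with an intercept, then eBayes, Benjamini-Hochberg), without and with a term for dye arrangement. An exact sign-flip test of 3 pairs cannot go below p 0.25. All arrays lay on 1 slide with 1 scan, so no batch was tested. The number of arrays limits the precision. The steps were tested on simulated data.

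Members and lists were chosen with earlier results of these data known. Named genes were all members, the signalling list (1 of its genes is not reported here), the CXCR3 axis, up to 4 genes of each other pathway list by absolute mean ratio, and the 10 nearest profiles. Alternatives were other background, normalization, filter, probe, replicate, dye and test choices. Levels of different probes were not compared.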

Additional observations from a re-analysis of the deposited data

Results flagged for a closer look

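In 7 of the 10 genes both arrays of pair 1 lay below 0 and all arrays of pairs 2 and 3 above 0. Log2 ratios in pair 1 were -1.56 for Gbp3, -0.84 for Irgm1, -0.26 for Irgm2, -0.92 for Igtp, -0.30 for Iigp1, -1.67 for Cxcl9 and -1.57 for Cxcl10. The means of pairs 2 and 3 were 1.50 for Gbp3, 1.40 for Irgm1, 1.57 for Irgm2, 2.31 for Igtp, 1.70 for Iigp1, 2.85 for Cxcl9 and 2.67 for Cxcl10. Gbp2 missed this pattern by array A of pair 1 (0.01). By pair means, 8 of the 10 were lower in pair 1 and higher in pairs 2 and 3, against 13.5% of all genes. The share of all genes with this pattern on every array was not counted. Tested with a term in limma over all genes, the difference between pair 1 and the other pairs did not pass for any of the 7 (adjusted p 0.787 to 0.796). Pair 1 and its dye arrangement cannot be told apart.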

How the results depend on the processing

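Some of the 19 alternatives, such as 6 arrays as 6 replicates or no replicate block, change the test only and leave the means as they were. Over all 19 alternatives, the 190 values of the 10 genes kept their sign and their side of the threshold in 188 (lowest adjusted p 0.0803, for Irf1 with 6 arrays as 6 replicates). The exceptions were both for Gbp3: its mean was -0.0272 with dye arrangement as a term, and leaving out 1 pair each gave -0.19 (without pair 2) to 1.50. Without pair 2 the means of Irgm1 and Cxcl10 were close to 0 as well (0.0037 and 0.09). The count of genes called by limma was 0 in the main setting, 298 with 6 arrays as 6 replicates, 13 with the pair as a random replicate block (consensus correlation 0.962) and 9 with the rank product. Of the 10 genes 0 were called in any of these. With no replicate block, 0 genes passed (827 at an unadjusted p under 0.05), and the deviations of same-numbered RNAs correlated at -0.03, -0.22 and -0.04 in pairs 1, 2 and 3. Higher in all 3 pairs was 1 gene with the mean over probes, in place of 2. The members' median ratio was 0.62 to 1.11 over 16 alternatives with all pairs, 1.64 without pair 1, 0.44 without pair 2 and 0.84 without pair 3. Median centring moved the median of all genes to -0.14, relative to which the members' median was 0.94. Chosen after the data were seen, other scalings of the levels left the RNA labeled RANK+/+ of pair 3 lowest in 9 or 10 genes and that labeled RANK-/- of pair 2 highest in 9. With 3 pairs and 1 dye arrangement per pair, dye could not be separated from the pair. With all arrays on 1 slide, no slide effect could be tested.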
